A study of Mus musculus with 2 samples.

Results

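Contractile and filament genes of myofibroblasts were examined in RNA-seq of primary mouse hepatocytes, 1 library from oil-injected mice and 1 library from mice injected with CCl4, a solvent that injures hepatocytes and leads to fibrosis when given repeatedly. The gene set holds 10 named genes, found by their symbols among the 20313 genes of the mRNA table: Acta2, Actg2, Myh11, Myl9, Tagln, Cnn1, Tpm1, Tpm2, Des and Vim. Both groups were WT C57BL/6J mice with intraperitoneal injections, and the methods give male sex and 5 weeks of age when obtained. The CCl4 group received a 20% solution in mineral oil at 2.5 ml CCl4 per kg body weight, with 2 injections per week, and the controls are labelled as injected with oil. The labels give 8 weeks of injection and the methods give 4 weeks. The hepatocytes were separated by enzyme perfusion and a density gradient, with no sorting step described, and how many mice each library stands for is not given in the sources used here. With 1 library per condition, no difference below has a replicate check, and no test or p-value is given.

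Smooth muscle and myofibroblasts contract when myosin motors pull on actin filaments, with tropomyosins lying along the filament, and calponin and transgelin binding to it. Desmin and vimentin form intermediate filaments, which carry mechanical load rather than move. In an injured liver the main myofibroblasts derive from hepatic stellate cells, and smooth muscle α-actin is the marker by which they are usually recognised, whereas hepatocytes build their intermediate filaments from keratins 8 and 18. The methods name Acta2 and desmin among the stellate cell markers used in a separate qRT-PCR purity check of the isolated cells.

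Values are RPKM, given for the oil library ("with oil") and the CCl4 library ("with CCl4"), that is reads per kilobase of transcript and scaled to library size. Steps in the RPKM values gave about 57992529 reads with oil and 64655491 with CCl4. No mRNA value lay above 0 and under 1 RPKM, so a gene listed at 0 may have had a level of up to 1 RPKM. Hepatocyte markers were abundant in both libraries, with all 12 of the list at 1 RPKM or more. Albumin (Alb) stood at 8656 RPKM with oil and 6476 RPKM with CCl4. Differences are given as log2(CCl4 RPKM + 1) minus log2(oil RPKM + 1), and a gene was counted as past the fold at a size of at least 1. All 12 hepatocyte markers were lower in the CCl4 library, and Apoa1, Hnf4a, Cyp2e1, Cps1, Tat, Pck1, Tdo2 and Serpina1c were past the fold. The median mRNA entry measured in both libraries was higher by 0.33 (log2) in the CCl4 library, and this is the shift removed below. The summed RPKM without the 10 most abundant entries differed by -0.16 (log2, CCl4 minus oil), so the direction depends on the measure. Of 16680 entries at 1 RPKM or more in at least 1 library, 3100 (18.6%) were higher past the fold and 898 (5.38%) were lower, so 77.5% of those past the fold were higher. With the shift of the median entry removed, 2192 were higher and 1425 lower, a share of 60.6%. Scaled by the sum without the 10 most abundant entries instead, 3715 were higher and 698 lower, a share of 84.2%.

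The contractile and filament genes were higher in the CCl4 library in 9 of 10 cases, each past the fold, and none was lower. Over 12009 genes, 18.6% were higher past the fold and 5.58% were lower. Of the 9, 7 had values in both libraries. Actg2 and Myh11 were listed at 0 in the oil library and passed the filter through the CCl4 library alone. Cnn1 was listed at 0 in both. The median log2 difference was 1.76 over all 10 and 1.79 over the 9 at 1 RPKM or more in at least 1 library, the filter that the median of 0.31 over the 12009 genes also used. For the 7 genes with both values, the CCl4 level was between 2.37 and 7.43 times the oil level. With the shift removed, 6 of the 7 genes with both values stayed past the fold and Tpm1 did not. Actg2 and Myh11 stayed past it too, but where they stand is fixed by the 0 listed with oil. The log2 differences of the genes with both values then ran from 0.88 for Tpm1 to 2.06 for Tagln. In bulk RNA, more cells of a type and more RNA per cell cannot be told apart.

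**Figure D1:**
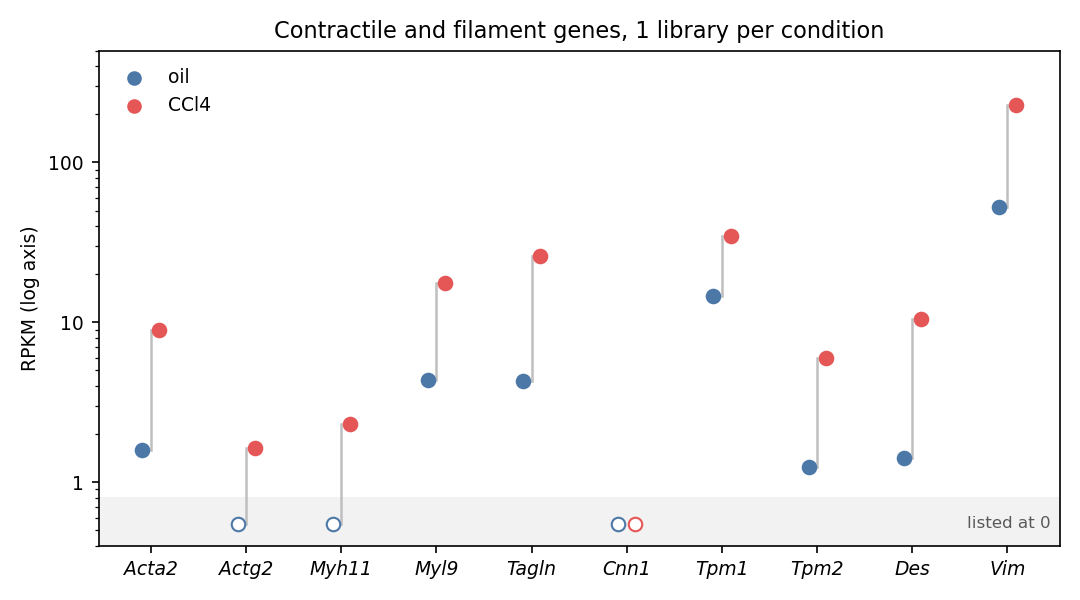
RPKM on a log axis for each of the 10 genes in the oil library (blue) and the CCl4 library (red), 1 library each, so there are no error bars. Open circles in the grey band are genes listed at 0; every filled CCl4 point lies above its oil point, from Actg2 at 1.63 RPKM to Vim at 227.4 RPKM.

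Many smooth muscle genes carry the CArG box, a 10-letter element bound by serum response factor, near their start. RefSeq promoter windows of GRCm38.p6 (250 bases before to 50 after the start) were matched by symbol for 7 of the 10 genes, with no entry for Actg2, Tagln and Myh11. The box reads the same on both strands, so 1 search covers both. An exact match was found in 1 of the 7 windows (Myl9), and in 535 of 32851 windows over all genes (1.63%). With up to 1 letter changed, 3 of the 7 windows held a match (Acta2, Myl9 and Tpm1), as did 21.1% of all windows. The windows of Cnn1, Tpm2, Des and Vim held none. A match describes these letters only, and whether serum response factor bound there or acted on the gene was not measured. The genes of the 3 windows with matches were higher in the CCl4 library, as were Tpm2, Des and Vim, whose windows held none. The 3 windows with matches, of an actin, a myosin light chain and a tropomyosin, are printed. Each runs 5′ to 3′ on the strand of its gene, with matches in capitals, and distances are from the start the promoter table uses. That start lies inside the gene as the RefSeq gene table bounds it, by 212 bases in Acta2, 56 bases in Myl9 and 459 bases in Tpm1, so the matches of Acta2 and Tpm1 are within those gene bounds and those of Myl9 are before them. Which start was used in these cells was not measured.
Acta2 (chr19:34255324-34255623, minus strand): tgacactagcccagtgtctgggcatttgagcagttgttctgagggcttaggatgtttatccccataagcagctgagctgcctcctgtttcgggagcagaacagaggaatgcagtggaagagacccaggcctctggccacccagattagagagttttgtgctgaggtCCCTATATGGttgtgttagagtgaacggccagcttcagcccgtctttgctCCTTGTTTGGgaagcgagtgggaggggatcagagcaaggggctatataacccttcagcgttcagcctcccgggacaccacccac
Myl9 (chr2:156775214-156775513, plus strand): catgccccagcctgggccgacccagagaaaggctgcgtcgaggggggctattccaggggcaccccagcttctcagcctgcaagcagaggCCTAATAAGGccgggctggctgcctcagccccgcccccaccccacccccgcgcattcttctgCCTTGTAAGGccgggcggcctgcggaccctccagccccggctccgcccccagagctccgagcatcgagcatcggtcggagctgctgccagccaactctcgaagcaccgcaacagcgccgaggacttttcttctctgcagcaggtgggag
Tpm1 (chr9:67049164-67049463, minus strand): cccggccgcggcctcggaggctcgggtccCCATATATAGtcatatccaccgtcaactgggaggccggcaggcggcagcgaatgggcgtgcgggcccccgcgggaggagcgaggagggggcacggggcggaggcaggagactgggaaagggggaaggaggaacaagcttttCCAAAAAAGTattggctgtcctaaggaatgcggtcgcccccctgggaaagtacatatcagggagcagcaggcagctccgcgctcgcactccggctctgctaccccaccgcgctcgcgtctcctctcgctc
In the Acta2 window, CCCTATATGG began 84 bases before the start and CCTTGTTTGG began 34 bases before it, each 1 letter off the box. The Myl9 window held the exact match CCTAATAAGG at 161 bases before the start and CCTTGTAAGG, 1 letter off, at 99 bases. In the Tpm1 window, both CCATATATAG at 221 bases and CCAAAAAAGT at 80 bases were 1 letter off.

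Smooth muscle actins were present at low levels and were higher in the CCl4 library. Acta2 (NM_007392, chr19:34240336-34255585 in GRCm38.p6), smooth muscle α-actin, stood at 1.58 RPKM with oil and 8.92 RPKM with CCl4. That is 5.64-fold higher, with a 95% interval of 4.28 to 7.56 for counting error only, from no fewer than 59 reads (oil) and 371 reads (CCl4). Its log2 difference of 1.94 ranked 290 among the 12009 genes, counted from the largest. Actg2 (NM_009610, chr6:83512909-83536251), the γ-actin of enteric smooth muscle, was listed at 0 with oil and at 1.63 RPKM with CCl4. No fold is given for it or for Myh11, since the authors' log2 column, from which some listed zeros could be worked back, was not used. The log2 difference of Actg2, 1.40, depends on the RPKM added. The 2 genes code for nearly identical proteins, so reads could have been shared between them, and Actg2 also overlaps the lncRNA gene Gm38844. The counting program and its strand setting are not given in the sources used here.

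Nonmuscle actins dwarfed them in both libraries. Actb, the cytoplasmic β-actin of all cells, stood at 920.5 RPKM with oil and 1445 RPKM with CCl4, 1.57-fold higher. Actg1, cytoplasmic γ-actin, stood at 184.7 RPKM and 236.0 RPKM, 1.28-fold higher. The actins of skeletal muscle (Acta1) and heart (Actc1) were listed at 0 in both libraries. On the RPKM scale, Acta2 made up 0.143% of the summed actin level with oil and 0.528% with CCl4.

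The smooth muscle myosin chains were also higher in the CCl4 library. Myh11 (NM_001161775, chr16:14194527-14292188), the smooth muscle myosin heavy chain and a marker of mature smooth muscle, was listed at 0 with oil and at 2.32 RPKM with CCl4. Its other transcript entry was likewise listed at 0 and at 2.32 RPKM. Myl9 (NM_172118, chr2:156775408-156781657), the regulatory light chain of smooth muscle myosin and the gene with the exact CArG match, stood at 4.36 RPKM with oil and 17.6 RPKM with CCl4. It was 4.02-fold higher, with a counting interval of 3.53 to 4.60, a log2 difference of 1.79 and a rank of 398.

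Among the other myosin genes, the heavy chain Myh9 of nonmuscle myosin, found in most cells, stood at 43.4 RPKM with oil and 78.7 RPKM with CCl4. Myh10, another nonmuscle heavy chain, stood at 1.49 RPKM and 4.67 RPKM, 3.13-fold higher. The remaining one, Myh14, was lower, at 1.43 RPKM and 1.01 RPKM. Myh11 made up 2.68% of the summed level of these nonsarcomeric heavy chains in the CCl4 library, and Myh9 made up 90.8% of it. Of the light chains, Myl9 held 1.39% of the summed level with oil and 4.08% with CCl4, whereas Myl6, an essential light chain of smooth muscle and nonmuscle myosin, held 71.4% and 63.3%.

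Of the 2 actin-binding proteins, one was higher in the CCl4 library and the other was listed at 0 in both. Tagln (NM_011526, chr9:45929628-45936058), which codes for transgelin, an early marker of smooth muscle and myofibroblasts, had a log2 difference of 2.34, at rank 152. It stood at 4.32 RPKM with oil and 26.0 RPKM with CCl4. This was 6.03-fold higher, with a counting interval of 5.42 to 6.71 from at least 397 reads and at least 2667 reads. Its locus overlaps Pcsk7, so reads of the 2 genes may not have been separable. Cnn1 (NM_009922, chr9:22099221-22109221), calponin 1 of mature smooth muscle, was listed at 0 in both libraries, which leaves levels under 1 RPKM unresolved. The other calponins were measured in both, Cnn2 at 16.6 RPKM and 33.9 RPKM (oil and CCl4) and Cnn3 at 35.2 RPKM and 38.1 RPKM.

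Both tropomyosins of the set were higher, by unlike amounts. Tpm1 (NM_001164252, chr9:67022590-67049672) was the most abundant of the 10 genes after Vim, at 14.7 RPKM with oil and 34.7 RPKM with CCl4. It was 2.37-fold higher, with a counting interval of 2.23 to 2.52, the smallest fold among the 7 genes with both values. Its log2 difference of 1.19 ranked 1547 and became 0.88 with the shift removed. Tpm1 is made in many cell types through alternative exons, and its 10 transcript entries all pointed the same way, with CCl4 levels 2.27 to 2.86 times the oil levels. Those entries share exons and are not independent. Tpm2 (NM_001277876, chr4:43513726-43523583), β-tropomyosin, stood at 1.24 RPKM with oil and 6.00 RPKM with CCl4, 4.86-fold higher with a counting interval of 4.08 to 5.82. Of its 3 entries, 1 was listed at 0 with oil and at 4.05 RPKM with CCl4. The last bases of Tpm2 overlap those of Car9.

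**Figure D2:**
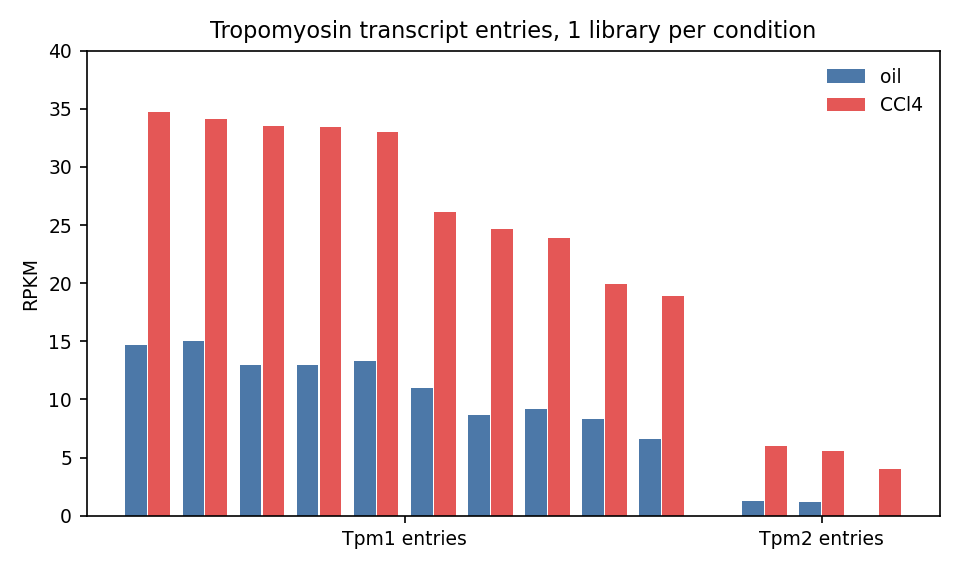
RPKM of each of the 10 Tpm1 and 3 Tpm2 transcript entries in the oil library (blue bars) and the CCl4 library (red bars), sorted by CCl4 level, 1 library each. Every red bar is taller than its blue bar, and the missing blue bar is the Tpm2 entry listed at 0.

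The broadly expressed tropomyosins kept most of the family's level. Tpm3 stood at 49.1 RPKM with oil and 78.2 RPKM with CCl4, and Tpm4 at 30.1 RPKM and 66.9 RPKM. Tpm1 made up 15.4% of the summed tropomyosin level with oil and 18.7% with CCl4. For Tpm2 the shares were 1.30% and 3.23%.

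Intermediate filament genes were higher or lower in the CCl4 library depending on the gene. Vim (NM_011701, chr2:13574311-13582826), the filament protein of mesenchymal, endothelial and immune cells, stood at 52.3 RPKM with oil and 227.4 RPKM with CCl4. It was 4.35-fold higher, with a counting interval of 4.20 to 4.51 from at least 3510 and 17029 reads, and 894 genes stood above it in the oil library but 178 in the CCl4 library. Des (NM_010043, chr1:75360292-75368579), desmin, which stellate cells of rodents also make before activation, stood at 1.41 RPKM with oil and 10.5 RPKM with CCl4. Its 7.43-fold difference, with a counting interval of 6.35 to 8.73, was the largest ratio among the 7 genes with both values. The 3′ end of Des overlaps the lncRNA gene Gm15179.

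The hepatocyte keratins went the other way. Krt8 stood at 171.5 RPKM with oil and 67.5 RPKM with CCl4, 2.54-fold lower in the CCl4 library. Krt18, its partner in the filament, stood at 129.7 RPKM and 42.9 RPKM, 3.02-fold lower. Both were past the fold, and Vim passed from 0.305 times the Krt8 level in the oil library to 3.37 times it in the CCl4 library. The sum over Vim, Des, Krt8 and Krt18 was 354.8 RPKM and 348.3 RPKM, of which Vim held 14.7% and 65.3%, and Des held 0.398% and 3.01%.

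**Figure D3:**
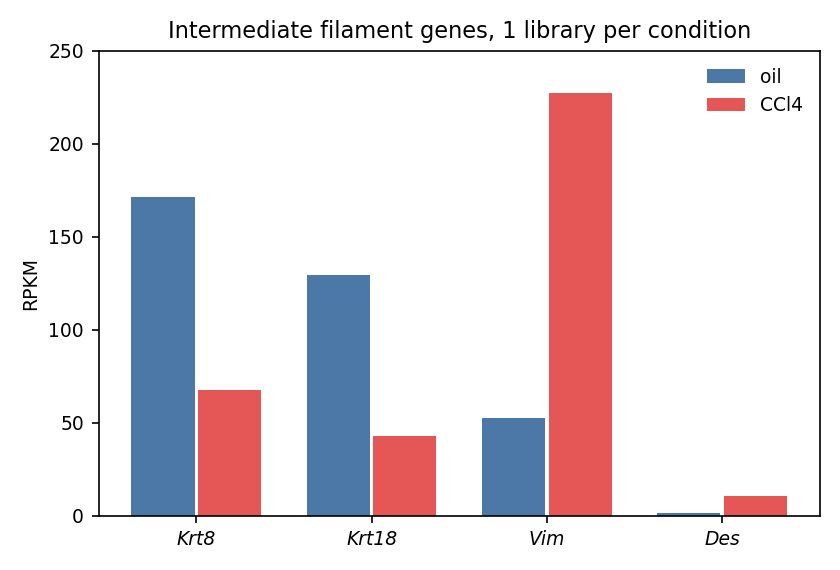
RPKM of the keratin genes Krt8 and Krt18 and of Vim and Des in the oil library (blue bars) and the CCl4 library (red bars), 1 library each. The keratin bars are shorter and the Vim and Des bars taller in the CCl4 library, with Vim at 227.4 RPKM above Krt8 at 67.5 RPKM.

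Summed over the 10 genes, the level was 79.8 RPKM with oil and 335.1 RPKM with CCl4, 4.20 times as much. Vim held 65.5% of the sum with oil and 67.9% with CCl4. Without Vim the sums were 27.6 RPKM and 107.7 RPKM, 3.90 times as much.

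Other genes of the contractile apparatus were examined list by list. Of 23 further smooth muscle contractile genes matched in the table, 19 were at 1 RPKM or more in at least 1 library. Of these, 8 were higher past the fold, 6 of them with values in both libraries, and none was lower past it. Over all genes 18.6% were higher. The median log2 difference over these 19 genes was 0.90, beside 0.31 over all genes on the same filter. The largest difference with 1 RPKM added was that of Fhl2, a LIM-domain protein, listed at 0 with oil and at 5.19 RPKM with CCl4. Ppp1r14a, an inhibitor of myosin phosphatase that keeps light chains phosphorylated, stood at 5.07 RPKM and 19.7 RPKM, 3.89-fold higher. Csrp1, a LIM protein of actin bundles, stood at 17.8 RPKM and 59.3 RPKM, 3.34-fold higher. Lower in the CCl4 library, but within the fold, were Pcp4l1, at 2.35 RPKM and 1.65 RPKM, and the caldesmon gene Cald1, at 21.1 RPKM and 19.5 RPKM. Mylk, the kinase that phosphorylates the regulatory light chain and a gene picked after its value was seen, stood at 6.75 RPKM and 14.6 RPKM. Lmod1, Synpo2, Kcnmb1 and Nexn were, like Cnn1, listed at 0 in both libraries.

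In 22 broadly expressed actomyosin genes, all measured in both libraries, 3 were higher past the fold, namely Myh10, Tpm4 and Actn4, and none was lower past it. That count is below the 18.6% share of all genes. Ppp1cb, a catalytic subunit of myosin phosphatase, stood at 13.4 RPKM and 13.6 RPKM. The median log2 difference of the list was 0.65, and with the shift removed none was past the fold. Myl6, Tpm3 and Tpm4 belong to this list and to the one before. Of 23 striated muscle genes, 20 were listed at 0 in both libraries. Tnni2, a troponin subunit of fast skeletal muscle, and Myl4, an atrial light chain, were listed at 0 with oil and at 1.69 RPKM and 1.16 RPKM with CCl4. Myl7, another atrial light chain, stood at 2.34 RPKM and 3.01 RPKM. Among 20 other intermediate filament genes, 11 were at 1 RPKM or more in at least 1 library, and 2 were higher past the fold, nestin (Nes, 1.99 RPKM with oil and 6.23 RPKM with CCl4) and the lamin Lmnb1 (2.02 RPKM and 5.39 RPKM). Krt19, a keratin of bile duct cells, stood at 8.86 RPKM and 17.8 RPKM. The 2 that were lower past the fold were Krt8 and Krt18. Over all genes 18.6% were higher and 5.58% lower, so the higher count is near background.

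Serum response factor acts through the CArG box. The list named for its circuit also holds factors that bind other elements, such as Tead1 and Gata6. Of its 15 genes, 11 were at 1 RPKM or more in at least 1 library, 2 were higher past the fold, 1 of them with values in both libraries, and none was lower, beside 18.6% higher over all genes. The median log2 difference over these 11 genes was 0.48. Tead1, a transcription factor also active in smooth muscle, was listed at 0 with oil and at 1.50 RPKM with CCl4. Gata6, with both values, stood at 2.14 RPKM and 5.69 RPKM. With the shift removed, Gata6 was within the fold at 0.84 (log2). Tead1 stayed past it, but where it stands is fixed by the 0 listed with oil. Csrp2, a LIM protein of smooth muscle, stood at 26.0 RPKM and 45.8 RPKM, within the fold. The smallest differences were those of Foxo4, at 5.86 RPKM and 6.87 RPKM, and Elk4, at 7.83 RPKM and 8.31 RPKM. The factor itself, Srf, stood at 4.56 RPKM and 6.76 RPKM, and its coactivator Mrtfa at 3.69 RPKM and 6.01 RPKM, neither past the fold. The smooth muscle coactivator Myocd was listed at 0 in both. These last 3 were picked after their values were seen.

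Markers of the cell types that make contractile proteins were measured in the same libraries, and their part in the results above was not tested. Counts below are to be read against the 18.6% of all genes that were higher past the fold. Of 10 genes listed for quiescent stellate cells, 9 were higher past the fold, 7 of them with values in both libraries. With the shift removed, 9 stayed so. The list is not specific to quiescence, since activated stellate cells also make Pdgfrb, Ngfr and Dcn. The summed level of the 10 genes was 76.3 RPKM with oil and 481.5 RPKM with CCl4, 6.31 times as much. Dcn stood at 36.1 RPKM and 213.9 RPKM, and without it the ratio of sums was 6.66. Pdgfrb and Ngfr were listed at 0 in the oil library and Hhip at 0 in both. Of 10 matrix genes of activated stellate cells, 8 were higher past the fold, 7 of them with both values, and 8 with the shift removed. Their sum was 202.2 RPKM and 1083 RPKM, 5.35 times as much. Fibronectin (Fn1), which hepatocytes also make, held much of that sum at 113.3 RPKM with oil and was lower, at 94.2 RPKM, with CCl4. Without Fn1 the matrix sums were 88.9 RPKM and 988.3 RPKM, 11.1 times as much, so the order of the matrix and quiescent lists depends on that gene. For the 10 contractile and filament genes the ratio of sums was 4.20, and it lay between 3.90 and 4.61 when any 1 of them was left out.

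Vascular and fibroblast markers were measured at lower levels. Of 10 vascular smooth muscle and pericyte markers, 6 were past the fold on the higher side, but Notch3, Rgs4 and Ndufa4l2 were listed at 0 with oil. Pln was on the lower side through a listed 0 with CCl4. With values required in both libraries, 3 were higher and none lower. Their sums were 22.1 RPKM and 77.7 RPKM, 3.51 times as much, or 5.79 times without Mcam. Rgs5, a pericyte marker, stood at 2.77 RPKM and 23.3 RPKM, while Cspg4 and Higd1b were listed at 0 in both libraries. Of 10 portal fibroblast markers, 5 were higher, 4 of them with both values, and Gli1 was listed at 0 in both, with sums of 21.2 RPKM and 84.2 RPKM, 3.97 times as much. Of 8 mesothelial markers, 2 were higher, a share near that of all genes, and 1 of these, Wt1, was listed at 0 with oil.

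Vim is also made by endothelial and immune cells, whose markers were measured too. Of 10 sinusoidal endothelial markers, 2 were higher past the fold, again near the share of all genes, and 0 with the shift removed. Their sum was 610.3 RPKM with oil and 1049.7 RPKM with CCl4. Of 9 Kupffer cell and macrophage markers, 6 were higher, of which 2 remained with the shift removed, and the sums were 1330.0 RPKM and 3626 RPKM. Of 8 lymphocyte markers, 3 were higher, 2 of them with both values, and Klrb1c was lower through a listed 0 with CCl4. Of 8 cholangiocyte markers, 4 were listed at 0 in both libraries and Spp1, which other cell types also make, was the one higher past the fold. It stood at 37.4 RPKM with oil and 145.1 RPKM with CCl4, and without it the cholangiocyte sums were 13.4 RPKM and 25.1 RPKM.

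Contractile genes and stellate cell genes did not keep a fixed proportion between the libraries. Col1a2, a chain of type I collagen, stood at 6.69 RPKM with oil and 141.8 RPKM with CCl4, 21.2-fold higher. Acta2 was 23.7% of the Col1a2 level with oil and 6.29% with CCl4. Tagln was 64.6% and 18.3% of it, and Des 21.1% and 7.39%. Lrat, the enzyme that makes the retinyl esters stored by stellate cells, stood at 1.84 RPKM and 23.6 RPKM, 12.8-fold higher. Against it, Des passed from 76.7% to 44.5% and Acta2 from 86.0% to 37.8%.

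**Figure D4:**
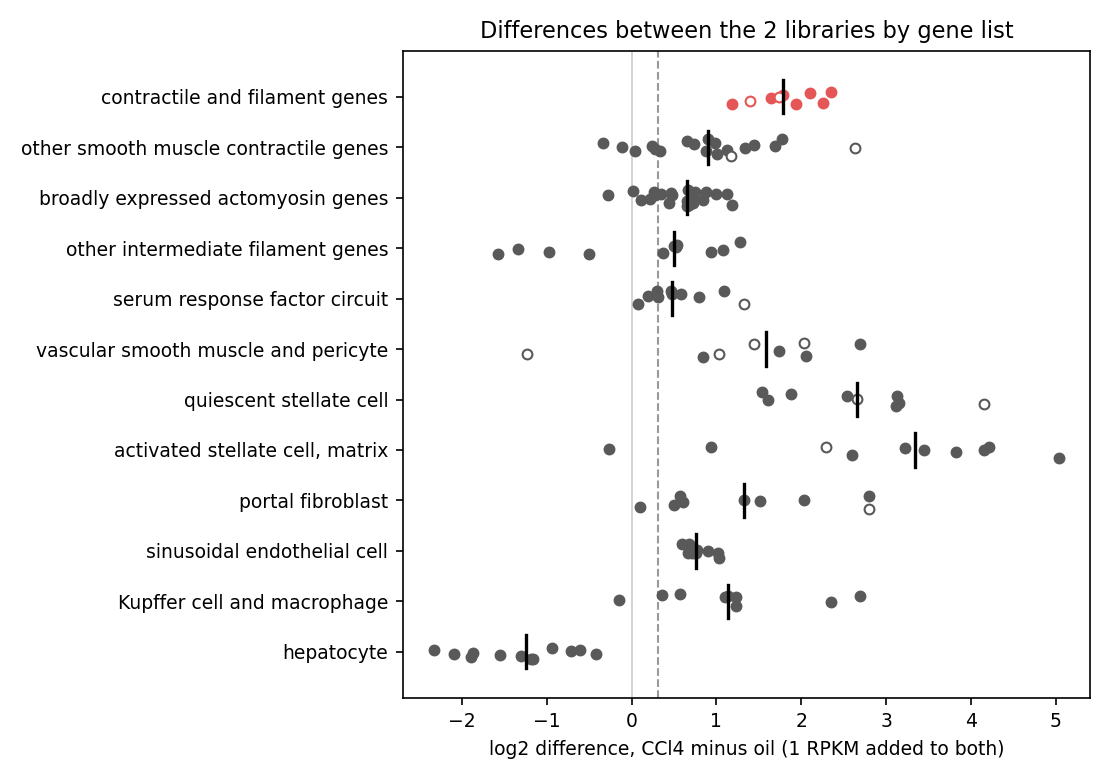
Log2 difference between the libraries, CCl4 minus oil with 1 RPKM added, for every gene of 12 lists at 1 RPKM or more in at least 1 library, 1 library per condition. Red points are the contractile and filament genes, open points are genes listed at 0 in 1 library, black bars are the medians of the points drawn, and the dashed line is the median of 0.31 over 12009 genes. All 9 red points lie right of it, while the hepatocyte points lie left of 0.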

How the data were processed

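Total RNA of 2 hepatocyte preparations was sequenced, 1 library per condition, with groups taken from the labelled treatment. The authors deposited RPKM values for 27457 mRNA entries, with 0 in place of any value under 1 RPKM. This was checked on the new lncRNAs, for which the authors deposited whole read counts, transcript lengths as another column and unrestricted RPKM: all 1354 values under 1 in the oil library and all 1347 in the CCl4 library were 0 in the comparison table. The comparison tables also hold the authors' log2 fold change, p-value and q-value, which were not used. Submitters' processing notes list TopHat2, CASAVA 1.4 and the build mm10. The counting program, strand setting and annotation version are not given in the sources used here. Annotated lncRNAs were not used.

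RefSeq identifiers were paired with symbols, coordinates and promoters through RefSeq tables of GRCm38.p6, and 412 entries had no symbol. Each gene was represented by its entry with the highest mean RPKM. Entries at 1 RPKM or more in at least 1 library were kept, and differences were taken on the log2(RPKM + 1) scale, which understates those of low genes. Read numbers came from the steps of the RPKM values, with the library total shared by 24 genes (oil) and 27 genes (CCl4), and the shortest transcript length that gave whole reads in both libraries, so they are lower bounds. The new lncRNA counts gave totals of 62438197 and 70960849 reads. Intervals are exact Clopper-Pearson intervals at 95% and cover counting error only.

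The 10 genes and all lists were chosen with earlier results of these data known. The rule for named genes gave the 10, the 3 highest and 2 lowest signed differences of each list, every list gene lower past the fold, and genes set beside one of the 10. Not all of these are printed for the marker lists, and genes listed at 0 were named after their values were seen. Tgfb1i1 and Cd68 had no match. Alternatives were other added values (0.1 and 0.5 RPKM), other filters, 2 scalings, a log2 difference of 2, sums over entries and, chosen after seeing the data, list sums without 1 gene. The scripts were tested on simulated data. Python 3.11.15, numpy 2.4.6, pandas 2.3.3, scipy 1.17.1 and matplotlib 3.10.9 were used.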

Additional observations from a re-analysis of the deposited data

How the results depend on the processing

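With 1 library per condition, all values describe these libraries alone. Levels under 1 RPKM are not resolved here, because the deposited tables list them as 0 and the authors' log2 column was not used. In the alternatives run, none of the 9 genes that were higher in the CCl4 library changed direction. Tpm1 ranged from 0.88 to 1.35 (log2) and was the one to leave the fold, under median scaling. Actg2 (1.30 to 4.12) and Myh11 (1.62 to 4.60) depended most on the RPKM added. No paired analysis was possible because each condition had 1 library and the result comes from no test.

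The median over the 10 genes, 1.76 as reported, was 2.31 with 0.1 RPKM added, 2.10 with 0.5 RPKM, 1.94 for genes at 1 RPKM or more in both libraries, 1.56 with median scaling, 1.86 scaled without the 10 most abundant entries and 2.02 over summed entries. The log2 ratio of their summed RPKM, 2.07, was 1.74 with median scaling, 2.23 without the 10 most abundant entries and 1.73 over summed entries. At a log2 difference of at least 2, 3 of the 10 genes, 347 entries higher and 110 lower, 1 other smooth muscle gene, 0 broadly expressed actomyosin genes and 0 other intermediate filament genes in either direction remained past it. Median scaling gave 1425 entries lower, 0 broadly expressed actomyosin genes higher and 1 other intermediate filament gene higher. Scaling without the 10 most abundant entries gave 5 broadly expressed actomyosin genes, and requiring 1 RPKM in both libraries gave 1501 entries higher.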
